A study of Homo sapiens with 9 samples.

Results

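The circadian clock genes described here were the 10 rows of the gene count table with the symbols PER1, PER2, PER3, CRY1, CRY2, ARNTL, CLOCK, NR1D1, NR1D2 and DBP, out of 26475 rows. They were chosen by symbol, as the core activators, repressors and output factor of the clock, and not by a rule on their values. Earlier results of these data were known when they were chosen. RNA was sequenced from hTERT_RPE1 cells, a retinal pigment epithelial line immortalised with telomerase, in 9 libraries of 3 conditions with 3 libraries each. Control cells carried the control vector on fibronectin-coated glass. Cells named sh_PIP4K2B grew on the same glass and were silenced for PIP4K2B, a kinase that makes the membrane lipid phosphatidylinositol bisphosphate, with a different hairpin (#1, #2 or #3) in each library. Soft cells carried the control vector and grew on a fibronectin-coated hydrogel of 2.3 kPa. All cells were harvested 24 h after seeding. For Control and Soft the titles give an empty pLKO vector and the treatment field a Ctrl shRNA, and the labels do not settle which of them the cells carried. The spread of the sh_PIP4K2B libraries includes any difference between hairpins, and the labels do not say that the Control or Soft libraries came from separate cultures. For these 2 conditions p-values may measure technical spread only. The question for the clock genes is whether silencing PIP4K2B or growth on a soft substrate went with another level of their RNA.

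The circadian clock is a feedback loop of transcription that most cell types run. ARNTL, also named BMAL1, pairs with CLOCK and activates genes through E-boxes in their promoters, among them the PER, CRY, NR1D and DBP genes. The PER and CRY proteins then inhibit that pair, while the nuclear receptors NR1D1 and NR1D2 (REV-ERB alpha and beta) repress ARNTL, and DBP activates genes through D-boxes. Cultured cells keep such rhythms, each cell with its own phase unless a signal such as serum or a glucocorticoid sets them together. With 1 time point, the phase, the amplitude and the mean level of a rhythm cannot be told apart in these libraries. In bulk RNA a change in the share of cells that express a gene and a change in RNA per cell cannot be told apart either.

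The 5 promoters of the genes on which the results turn are shown first. ARNTL, PER3 and DBP are those that passed the test in a comparison, and PER1 and NR1D1 are the pair of clock genes with the most similar levels over the libraries. Each window runs from 250 bases before the transcription start to 50 bases from it, 5′ to 3′ on the strand of the gene, as RefSeq gives it on GRCh38.p14. All 10 clock genes matched a window. Capitals mark a match to a searched motif on either strand, and positions are counted from 0 at the transcription start. In the ARNTL window (chr11:13277540-13277839, plus strand) the capitals are a binding motif of the ROR and REV-ERB receptors at bases 30 to 36. In the PER3 window (chr1:7784041-7784340, plus strand) they are a D-box at bases -177 to -170. The DBP window (chr19:48637330-48637629, minus strand) held none of the searched motifs. The PER1 window (chr17:8152355-8152654, minus strand) held an E-box at bases -173 to -168, and the NR1D1 window (chr17:40100540-40100839, minus strand) the one-letter variant of it, the E'-box, at bases -168 to -163.
ARNTL: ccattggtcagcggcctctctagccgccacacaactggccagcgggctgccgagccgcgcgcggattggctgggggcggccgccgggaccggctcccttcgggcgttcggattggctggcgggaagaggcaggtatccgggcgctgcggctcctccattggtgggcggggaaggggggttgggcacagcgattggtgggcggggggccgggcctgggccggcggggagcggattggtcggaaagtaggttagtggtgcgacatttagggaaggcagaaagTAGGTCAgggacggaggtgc
PER3: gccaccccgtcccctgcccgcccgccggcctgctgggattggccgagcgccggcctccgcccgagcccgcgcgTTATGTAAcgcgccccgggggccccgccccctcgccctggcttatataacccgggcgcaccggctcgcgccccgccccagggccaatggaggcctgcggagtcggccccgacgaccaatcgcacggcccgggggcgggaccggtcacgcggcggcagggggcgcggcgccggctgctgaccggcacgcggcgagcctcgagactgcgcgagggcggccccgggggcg
DBP: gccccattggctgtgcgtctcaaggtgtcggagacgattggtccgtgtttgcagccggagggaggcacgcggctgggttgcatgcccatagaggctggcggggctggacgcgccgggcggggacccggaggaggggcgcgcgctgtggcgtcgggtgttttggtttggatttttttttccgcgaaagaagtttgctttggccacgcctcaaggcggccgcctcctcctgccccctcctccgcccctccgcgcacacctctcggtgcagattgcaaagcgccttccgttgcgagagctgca
PER1: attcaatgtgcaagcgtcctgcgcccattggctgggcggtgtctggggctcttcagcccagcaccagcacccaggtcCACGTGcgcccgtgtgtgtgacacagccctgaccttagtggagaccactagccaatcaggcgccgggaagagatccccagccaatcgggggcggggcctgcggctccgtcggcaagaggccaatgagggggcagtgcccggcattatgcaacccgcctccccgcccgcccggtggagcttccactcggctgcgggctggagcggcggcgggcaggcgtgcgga
NR1D1: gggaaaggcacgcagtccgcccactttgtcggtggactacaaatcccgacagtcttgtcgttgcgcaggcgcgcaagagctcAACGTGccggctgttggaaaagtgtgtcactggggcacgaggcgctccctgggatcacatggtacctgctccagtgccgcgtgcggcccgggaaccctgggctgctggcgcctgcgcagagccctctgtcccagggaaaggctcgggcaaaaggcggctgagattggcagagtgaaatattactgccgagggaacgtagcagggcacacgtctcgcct

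Among the windows of all 10 clock genes the E-box CACGTG was found in 1, that of PER1, and in 7.26% of all 35116 RefSeq windows of this length. The E'-box CACGTT was found in the windows of PER2, CRY1 and NR1D1, against 5.34% of all windows. The D-box, searched as TTATGTAA and TTACGTAA, was found in PER2 and PER3, against 1.01% of all windows. The ROR and REV-ERB element, searched as TAGGTCA and TGGGTCA, was found in ARNTL, against 5.69% of all windows. The CRE motif TGACGTCA, bound by CREB, was found in 0 of the 10 windows and in 1.85% of all windows. None of the searched motifs lies inside another, and no match was found in the windows of CRY2, CLOCK, NR1D2 and DBP. These matches describe letters in 1 window per gene and not sites in use. Elements outside the window, as in introns or at another start of the gene, were not searched.

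**Figure D1:**
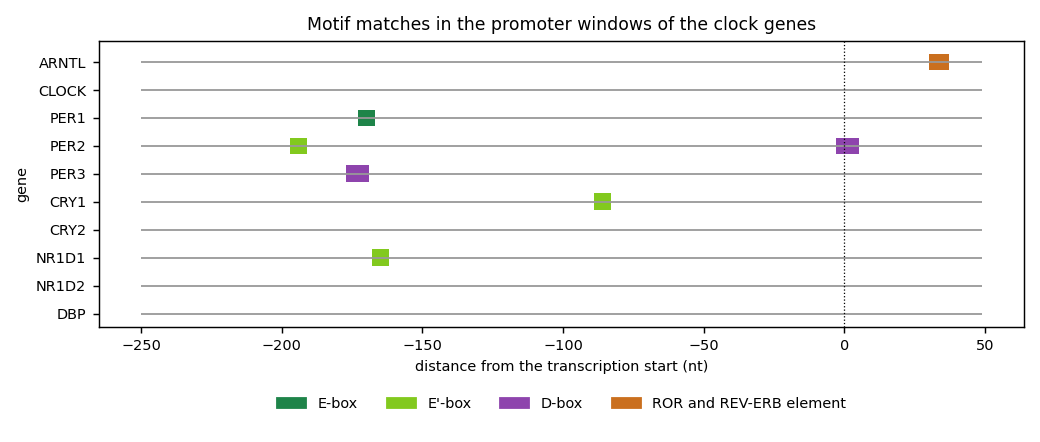
Positions of motif matches in the RefSeq windows of the 10 clock genes, by distance in nucleotides (nt) from the transcription start at 0. Grey lines are the windows of 300 nt and coloured blocks the matches. The windows of PER1, PER2, PER3, CRY1 and NR1D1 hold an E-box, E'-box or D-box, that of ARNTL holds the ROR and REV-ERB element downstream of the start, and 4 windows hold none.

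The libraries had total counts from 19217336 to 24020796, and a count of 3 in 1 library was between 0.131 and 0.148 CPM (counts scaled to the size of the library with TMM factors). The 10 clock genes all passed the filter on low counts, which kept 13784 genes. The silenced gene PIP4K2B was at 123, 124 and 120 CPM in Control and at 48.4, 40.9 and 36.6 CPM with hairpins #1, #2 and #3 (log2 fold change -1.54, edgeR adjusted p = 3.8e-04), and at 119, 122 and 127 CPM in Soft. When the Soft libraries were not in the fit, PIP4K2B was at -1.54 with an edgeR adjusted p of 0.012. The median SD of log2 CPM over genes was 0.081 in Control, 0.073 in Soft and 0.359 in sh_PIP4K2B, so the hairpin libraries set most of the spread that the fit over the 9 libraries used. Of 12 markers of retinal pigment epithelium, 8 were below 1 CPM in every library, among them RPE65, TYR, DCT and RLBP1, while MITF, OTX2, KRT8 and KRT18 were expressed. Their summed level was 1973 to 2120 CPM in Control, 755 to 1163 CPM with the hairpins and 959 to 1010 CPM in Soft, nearly all of it KRT8 and KRT18, with Control means of 1079 and 902 CPM. Of the 6 tested, OTX2 was higher and KRT18 lower in sh_PIP4K2B, and OTX2 and BEST1 were higher and KRT8 and KRT18 lower in Soft (edgeR, adjusted p below 0.01). BEST1 was below 1 CPM in every library, at 0.667 to 0.775 CPM in Soft. Of 9 markers of immune, endothelial and fibroblast cells, 6 were tested and 5 of them (CD68, PECAM1, DCN, LUM and PDGFRB) were higher in Soft, 0 in sh_PIP4K2B (edgeR, adjusted p below 0.01). Their summed level was 95.1 to 100.4 CPM in Control, 82.9 to 179 CPM with the hairpins and 363 to 375 CPM in Soft. Most of the Control sum was CD68, at 63.7 to 68.4 CPM there and at 143 to 148 CPM in Soft. In Soft PECAM1 was at 4.34 to 5.33 CPM, DCN at 22.3 to 29.5 CPM and PDGFRB at 191 to 196 CPM, and in Control they were at 0.0439 to 0.218, 2.37 to 2.84 and 27.3 to 28.1 CPM. LUM was below 1 CPM in every library, at 0.524 to 0.760 CPM in Soft and 0.0439 to 0.186 CPM in Control. The other markers PTPRC, LYZ, CDH5 and VWF were also below 1 CPM in every library, with CDH5 at 0 in Control and Soft and LYZ at 0 in Control. The part of these markers in the differences of the clock genes was not tested.

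The activating arm of the clock differed between its 2 members. In the fit of the 9 libraries ARNTL passed the test as higher both with silenced PIP4K2B and on the soft gel. CLOCK, its partner, passed in neither. ARNTL (ENSG00000133794, chr11:13276652-13387266 on GRCh38, plus strand) was at 6.85, 6.23 and 7.52 CPM in Control, at 10.6, 18.9 and 16.5 CPM with hairpins #1, #2 and #3, and at 13.9, 12.0 and 13.0 CPM in Soft. Every hairpin library and every Soft library was above every Control library. The Control mean was 6.86 ± 0.642 CPM, that of sh_PIP4K2B 15.3 ± 4.25 CPM and that of Soft 13.0 ± 0.931 CPM (SD, n = 3 each). ARNTL rose 2.23-fold in sh_PIP4K2B (log2 fold change 1.16, SE 0.20, edgeR adjusted p = 0.0063) and 1.89-fold in Soft (log2 fold change 0.92, SE 0.20, edgeR adjusted p = 0.0052). Among the 13784 genes tested its fold change ranked 528 from the top in sh_PIP4K2B and 2012 in Soft. Neither call held when a Control library was left out. Without Control replicate 1, 2 or 3 the adjusted p in sh_PIP4K2B was 0.036, 0.041 or 0.027, and in Soft 0.021, 0.027 or 0.016 (edgeR). Without Soft replicate 1, 2 or 3 the adjusted p in Soft was 0.022, 0.014 or 0.019 (edgeR). Over these 6 omissions the log2 fold change in Soft ran from 0.85 to 0.99.

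CLOCK (chr4:55427903-55546909, minus strand), a histone acetyltransferase and the partner of ARNTL, was at 44.5, 46.4 and 46.8 CPM in Control, at 69.7, 30.0 and 64.1 CPM with hairpins #1, #2 and #3, and at 27.3, 26.1 and 29.7 CPM in Soft. Hairpins #1 and #3 lay above all Control libraries and hairpin #2 below them, while every Soft library lay below every Control and every hairpin library. The log2 fold change was 0.25 in sh_PIP4K2B (SE 0.26, edgeR adjusted p = 0.53) and -0.73 in Soft (SE 0.26, edgeR adjusted p = 0.043), so CLOCK did not pass 0.01 in either. In the fit of Control and Soft alone, whose spread is that of the 6 libraries compared, the difference was -0.73 with an adjusted p of 2.0e-08 (edgeR). Without hairpin #2 CLOCK passed in sh_PIP4K2B with 0.54 (edgeR adjusted p = 0.0043). CLOCK shares 76 exonic bases with TMEM165 on the opposite strand, which fell in Soft by 0.56 on the log2 scale (edgeR adjusted p = 0.0085). The estimated counts of CLOCK were whole numbers in every library, as 955, 1057 and 1072 in Control and 599, 548 and 664 in Soft. The part of the shared bases in the values of CLOCK was not tested.

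**Figure D2:**
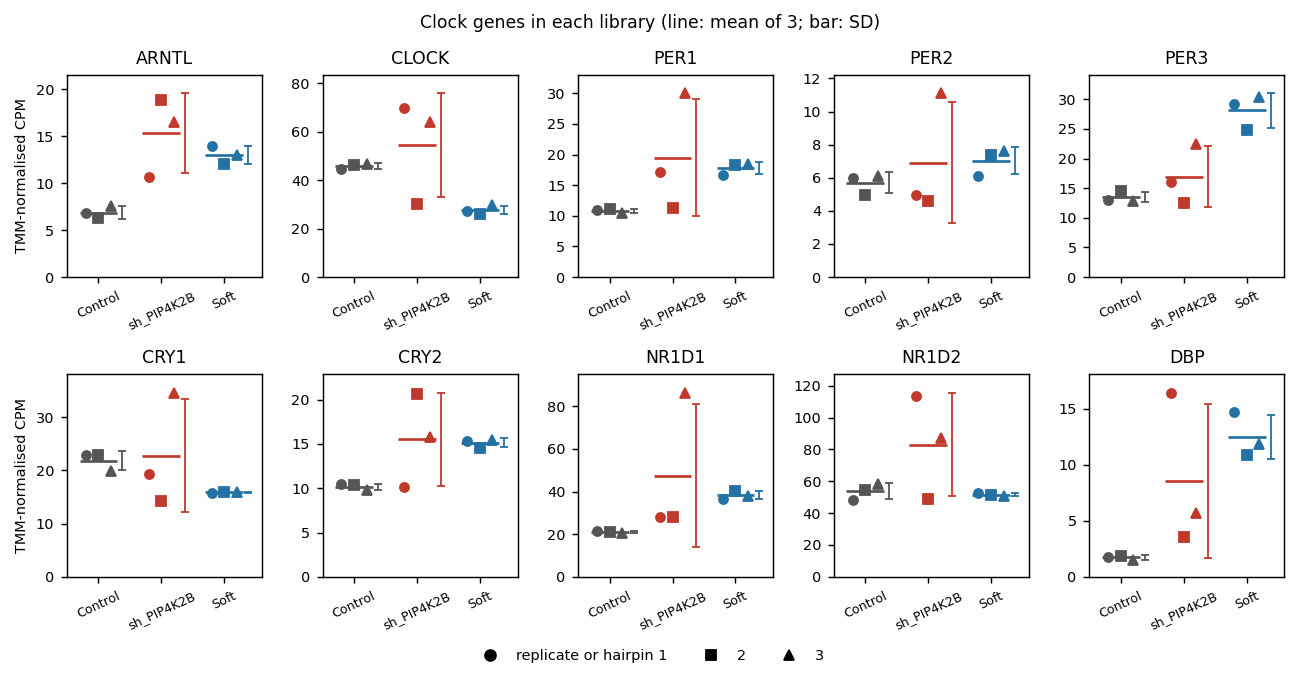
TMM-normalised CPM of each clock gene in each of the 9 libraries, on axes that start at 0 (circle, square and triangle are replicates or hairpins 1, 2 and 3, the horizontal line is the mean of 3 libraries and the bar beside it the SD). The Soft libraries lie close together in every panel while the hairpin libraries spread, as for DBP at 16.4, 3.56 and 5.69 CPM.

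The period genes encode the inhibitors that pair with the cryptochromes. Of the 3, PER3 rose in Soft, and neither PER1 nor PER2 passed the test in a comparison. PER3 (chr1:7784291-7845177, plus strand) was at 13.0, 14.5 and 12.9 CPM in Control, at 16.0, 12.4 and 22.4 CPM with hairpins #1, #2 and #3, and at 29.1, 24.9 and 30.4 CPM in Soft. Every Soft library was above every other library, whereas the hairpin libraries lay on both sides of Control. PER3 rose 2.09-fold in Soft, where the mean was 28.1 ± 2.92 CPM and in Control 13.5 ± 0.880 CPM (SD, n = 3 each, log2 fold change 1.06, SE 0.20, edgeR adjusted p = 0.0021), and its log2 fold change in sh_PIP4K2B was 0.33 (SE 0.20, edgeR adjusted p = 0.28). The call in Soft was lost by a small margin without Control replicate 1 or 3 (edgeR adjusted p = 0.012 and 0.013) and without Soft replicate 1 or 3 (0.0103 and 0.011). PER3 shares 868 exonic bases with UTS2 on the opposite strand, and UTS2 had no counts in any library.

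PER1 (chr17:8140472-8156506, minus strand), which is also induced early by signals that reset the clock, was at 10.9, 11.1 and 10.4 CPM in Control, at 17.2, 11.3 and 30.1 CPM with hairpins #1, #2 and #3, and at 16.7, 18.3 and 18.5 CPM in Soft. All libraries of both conditions were above Control, hairpin #2 by little and hairpin #3 most. The log2 fold change was 0.85 in sh_PIP4K2B (SE 0.29, edgeR adjusted p = 0.072) and 0.72 in Soft (SE 0.29, edgeR adjusted p = 0.065). Without hairpin #2 PER1 passed in sh_PIP4K2B with 1.13 (edgeR adjusted p = 0.0062). PER2 (chr2:238244044-238290102, minus strand), the period gene with the lowest level per length, was at 6.01, 4.96 and 6.12 CPM in Control, at 4.97, 4.62 and 11.1 CPM with hairpins #1, #2 and #3, and at 6.11, 7.38 and 7.60 CPM in Soft. Hairpin #3 stood alone above Control, and without it the log2 fold change of PER2 in sh_PIP4K2B went from 0.28 to -0.25. The groups overlapped in both comparisons against Control (Soft log2 fold change 0.30, SE 0.31, edgeR adjusted p = 0.45).

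The cryptochromes CRY1 and CRY2, the stronger inhibitors of the ARNTL and CLOCK pair, lay on opposite sides of Control in Soft, and neither passed 0.01 in the fit of 9 libraries. CRY1 (chr12:106991364-107093549, minus strand) was at 22.8, 22.9 and 19.9 CPM in Control, at 19.4, 14.2 and 34.6 CPM with hairpins #1, #2 and #3, and at 15.7, 16.0 and 15.9 CPM in Soft. The Soft libraries were all below Control, and the hairpin libraries ran from below to above it. Its log2 fold change was -0.46 in Soft (SE 0.27, edgeR adjusted p = 0.19) and 0.06 in sh_PIP4K2B (SE 0.27, edgeR adjusted p = 0.91). CRY2 (chr11:45847118-45883248, plus strand) was at 10.4, 10.3 and 9.79 CPM in Control, at 10.2, 20.7 and 15.7 CPM with hairpins #1, #2 and #3, and at 15.4, 14.5 and 15.4 CPM in Soft. Soft was above Control in every library, and hairpin #1 was within the Control range. The log2 fold change of CRY2 was 0.57 in Soft (SE 0.22, edgeR adjusted p = 0.056) and 0.61 in sh_PIP4K2B (SE 0.22, edgeR adjusted p = 0.085), and without hairpin #1 the latter passed at 0.84 (edgeR adjusted p = 0.0025).

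The REV-ERB receptors form the second loop, in which they repress ARNTL. NR1D1 (chr17:40092793-40100589, minus strand) was at 21.4, 21.1 and 20.7 CPM in Control, at 28.2, 27.9 and 86.3 CPM with hairpins #1, #2 and #3, and at 36.6, 40.4 and 37.9 CPM in Soft. Every library of both conditions was above Control, with hairpin #3 far above the rest. The log2 fold change was 1.17 in sh_PIP4K2B (SE 0.38, edgeR adjusted p = 0.064) and 0.86 in Soft (SE 0.38, edgeR adjusted p = 0.091). Without hairpin #3 the value in sh_PIP4K2B was 0.41 and passed (edgeR adjusted p = 0.0081). NR1D2 (chr3:23945286-23980617, plus strand) was at 48.5, 54.4 and 58.5 CPM in Control, at 113, 48.8 and 87.1 CPM with hairpins #1, #2 and #3, and at 52.9, 51.3 and 50.8 CPM in Soft. Soft lay within the Control range (log2 fold change -0.06, SE 0.25, edgeR adjusted p = 0.86), hairpins #1 and #3 above it and hairpin #2 inside it (0.63, SE 0.25, edgeR adjusted p = 0.11). Without hairpin #2 NR1D2 passed in sh_PIP4K2B with 0.90 (edgeR adjusted p = 0.0023).

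Reads were divided between NR1D1 and a neighbour. NR1D1 shares 473 exonic bases with THRA, the thyroid hormone receptor alpha gene on the opposite strand, and the estimated counts of both genes were not whole numbers while their sum was whole, with a distance of 0, in each of the 9 libraries. The sums were 925, 941 and 941 in Control, 914, 811 and 2332 with hairpins #1, #2 and #3, and 2343, 2118 and 2259 in Soft. Of the sum NR1D1 held 49.6%, 51.0% and 50.4% in Control, 67.1%, 71.4% and 74.9% with the hairpins and 34.3%, 40.1% and 37.6% in Soft. THRA rose in Soft by 1.64 on the log2 scale (edgeR adjusted p = 0.0018) and was at -0.21 in sh_PIP4K2B (edgeR adjusted p = 0.66), and its call in Soft was lost without Control replicate 2 or 3. With the counts of both genes summed, an alternative chosen after seeing the data, the log2 fold change of the sum was 0.65 in sh_PIP4K2B (SE 0.35, edgeR adjusted p = 0.23) and 1.30 in Soft (SE 0.36, edgeR adjusted p = 0.014). The sum holds all reads of THRA and not only those of the shared bases, so it gives no value for NR1D1 alone. The part of the shared bases in the values of NR1D1 was not tested.

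DBP (chr19:48630030-48637379, minus strand), the PAR bZIP factor that carries the rhythm to output genes, had the widest differences from Control of the 10. It was at 1.77, 1.89 and 1.53 CPM in Control, at 16.4, 3.56 and 5.69 CPM with hairpins #1, #2 and #3, and at 14.7, 10.9 and 11.9 CPM in Soft. Every hairpin and every Soft library was above every Control library, and hairpin #1 was above all others. DBP rose 7.21-fold in Soft, where the mean was 12.5 ± 1.96 CPM and in Control 1.73 ± 0.182 CPM (SD, n = 3 each, log2 fold change 2.85, SE 0.51, edgeR adjusted p = 0.0016), rank 215 from the top of 13784 genes. In sh_PIP4K2B the mean was 8.56 ± 6.90 CPM (SD, n = 3), 4.95-fold that of Control and rank 87 from the top, with a log2 fold change of 2.31 that did not pass 0.01 (SE 0.50, edgeR adjusted p = 0.015). DESeq2 gave the same difference an adjusted p of 3.9e-05. Without hairpin #1 it was 1.41 and passed (edgeR adjusted p = 0.0045), and without hairpin #2 it was 2.68 and passed (edgeR adjusted p = 0.0030). In Soft the call was lost without Control replicate 3 (edgeR adjusted p = 0.0108). DBP shares 661 exonic bases with SPHK2 on the opposite strand, which was at 20.4 to 21.0 CPM in Control, 25.5 to 31.6 CPM with the hairpins and 22.9 to 25.3 CPM in Soft. The estimated counts of DBP were whole numbers in every library, and the part of the shared bases in its values was not tested.

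Counted over the clock genes, 1 of 10 (ARNTL, higher) passed in sh_PIP4K2B against Control, beside 763 of 13784 genes (5.54%), of which 381 (2.76%) were higher and 382 (2.77%) lower. In Soft against Control 3 of 10 passed (PER3, ARNTL and DBP, all higher), beside 4217 genes (30.6%), of which 2181 (15.8%) were higher and 2036 (14.8%) lower. The share of clock genes that passed in Soft was thus near that of all genes. The count in sh_PIP4K2B was 0 without Control replicate 1, 2 or 3 and 3, 5 or 2 without hairpin #1, #2 or #3, while the share of all genes called was 0.872%, 0.471% or 1.15% and 11.9%, 14.4% or 12.7%. In Soft it was 1, 2 or 0 without Control replicate 1, 2 or 3 and 1, 2 or 1 without Soft replicate 1, 2 or 3, while over all genes the calls fell from 4217 to between 2506 and 2721, or 17.9% to 19.4%. The median log2 fold change of the 10 was 0.62 in sh_PIP4K2B and 0.65 in Soft, beside 0.050 and 0.0125 over all genes. Values were above 0 for 10 of 10 clock genes in sh_PIP4K2B and for 7 of 10 in Soft (8 when scaled by library size only, where NR1D2 was at 0.047 and the median of all genes at 0.12), beside 7523 and 6994 of 13784 genes. In sh_PIP4K2B 8 of 10 were above 0 without hairpin #3, where CRY1 was at -0.38 and PER2 at -0.25, and 9 of 10 without Control replicate 3. These 2 comparisons share the Control libraries.

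In a fit of only the 2 conditions compared, 8 of 10 clock genes passed in Soft, beside 70.7% of 13578 genes. PER1, PER3, CRY2, ARNTL, NR1D1 and DBP were higher and CRY1 and CLOCK lower, with adjusted p from 1.2e-10 for DBP to 3.4e-05 for CRY1 (edgeR), while PER2 (adjusted p = 0.033) and NR1D2 (0.34) did not pass. In sh_PIP4K2B the same kind of fit called 0 of 10 with edgeR, beside 0.0375% of 13331 genes, or 5 genes. At an unadjusted p under 0.05 it had 5 of 10 clock genes, beside 24.6% of all genes. DESeq2 on the 9 libraries called 2 of 10 in sh_PIP4K2B (ARNTL and DBP), beside 13.6% of genes, and 3 of 10 in Soft, beside 34.5%. The fit of 9 libraries and that of 2 conditions differ in whose spread is used, and the log2 fold changes differed by little. The libraries of sh_PIP4K2B and Control did not overlap for 4 of 10 clock genes, all higher, beside 34.1% of all genes. Those of Soft and Control did not overlap for 8 of 10, 6 higher and 2 lower, beside 79.4% of all genes. Neither of these shares stood far from that of all genes.

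**Figure D3:**
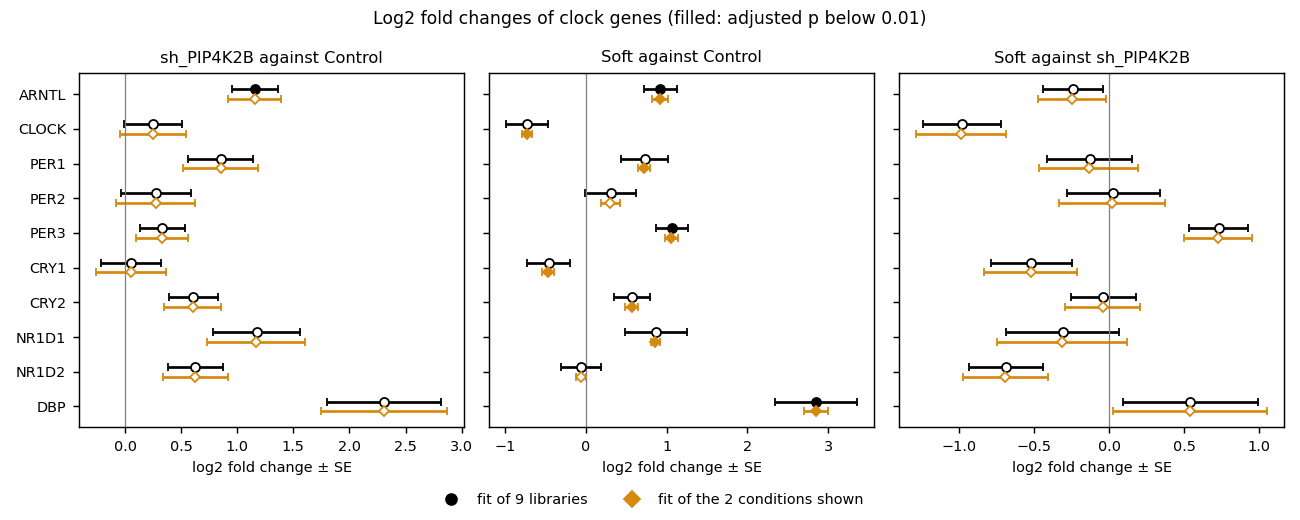
Log2 fold change of each clock gene in the 3 comparisons, with bars of 1 SE (black circles, fit of the 9 libraries, and orange diamonds, fit of the 2 conditions shown, filled where the adjusted p was below 0.01). Positions of the points barely differ between the fits, while 3 genes are filled in Soft against Control in the first and 8 in the second.

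Set directly against each other, Soft and sh_PIP4K2B differed past 0.01 in 0 of 10 clock genes with edgeR, beside 4135 of 13784 genes (30.0%), in 3 of 10 at an unadjusted p under 0.05 (beside 53.7%) and in 2 of 10 with DESeq2 (PER3 and CLOCK, beside 34.5%). Each of these member counts is below the share of all genes. Among the 10 the SD of log2 CPM over the hairpin libraries ran from 0.43 (PER3) to 1.13 (DBP). The median of that SD over all genes was 0.359. A wider spread makes a gene harder to call, so the low counts do not show that the conditions acted alike. CLOCK was lower in Soft by a log2 fold change of -0.98 (SE 0.26, edgeR adjusted p = 0.0125), PER3 higher by 0.73 (SE 0.20, edgeR adjusted p = 0.0136) and NR1D2 lower by -0.69 (SE 0.25, edgeR adjusted p = 0.046). PER3 and CLOCK were also the 2 clock genes whose libraries did not overlap, beside 54.0% of all genes. The fit of these 2 conditions alone also called 0 of 10, beside 16.1% of 13550 genes, with 3 of 10 at an unadjusted p under 0.05, beside 46.2%. ARNTL differed by -0.24 (SE 0.20, edgeR adjusted p = 0.35) and DBP by 0.54 (SE 0.45, edgeR adjusted p = 0.35), which does not show that the conditions acted alike on them. The count was 1, 2 or 2 without hairpin #1, #2 or #3, beside 38.4%, 34.0% or 37.7% of all genes. Without hairpin #1 DBP passed at 1.42 (edgeR adjusted p = 9.7e-04), without #2 CLOCK at -1.27 and NR1D2 at -0.96 (5.7e-05 and 6.6e-04), and without #3 PER3 at 0.97 and NR1D1 at 0.44 (8.7e-04 and 0.0026).

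The 3 hairpins each gave another pattern. With hairpin #1, 7 of 10 clock genes were above the Control mean, from a log2 ratio of -0.20 for PER2 to 3.25 for DBP, with a median of 0.51. With hairpin #2, 5 were above and 5 below, from -0.62 for CRY1 to 1.46 for ARNTL, with a median of -0.03. With hairpin #3 all 10 were above, from 0.48 for CLOCK to 2.04 for NR1D1, with a median of 0.85. The Soft libraries were alike, each with 7 genes above and 3 below, CLOCK lowest at -0.75, -0.81 and -0.63 and DBP highest at 3.09, 2.66 and 2.78. The remaining PIP4K2B RNA was at 48.4, 40.9 and 36.6 CPM with hairpins #1, #2 and #3, and its relation to these patterns was not tested. With 1 library per hairpin a difference between hairpins and one between cultures cannot be told apart.

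Levels of different genes were compared as CPM per kb of the canonical transcript. The level of NR1D1 holds an estimated part of the reads divided with THRA. In Control NR1D2 was highest at 10.3 ± 0.959 CPM per kb (SD, n = 3), followed by NR1D1 at 8.00 ± 0.126, CRY1 at 7.32 ± 0.572 and CLOCK at 4.38 ± 0.120 CPM per kb. NR1D1 and CRY1 overlapped within 1 SD. CRY2 and ARNTL at 2.46, PER1 at 2.31 and PER3 at 2.12 CPM per kb did not differ from their neighbours beyond their SD, nor did PER2 at 0.893 from DBP at 0.797 CPM per kb at the bottom. In Soft NR1D1 led at 14.6 CPM per kb, DBP moved from the last rank to rank 3 at 5.76 ± 0.903 CPM per kb, beside CRY1 at 5.31 ± 0.0393, and CLOCK moved from rank 4 to rank 9 at 2.65 ± 0.174 CPM per kb. In sh_PIP4K2B the order began with NR1D1 at 18.1 ± 12.8 and NR1D2 at 15.9 ± 6.22 CPM per kb and ended with PER3 at 2.67 ± 0.797 and PER2 at 1.08 ± 0.573 CPM per kb. Neighbours overlapped within their SD all along it, except for PER3 and PER2.

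Ratios within a library do not depend on its scaling. The log2 ratio of CLOCK to ARNTL, a pair added after its values were seen, was 2.75 ± 0.13 in Control (SD, n = 3), 1.78 ± 1.03 in sh_PIP4K2B (SD, n = 3) and 1.09 ± 0.11 in Soft (SD, n = 3). The log2 ratio of DBP to ARNTL went from -1.99 ± 0.29 in Control to -0.07 ± 0.12 in Soft, and was 0.63, -2.41 and -1.54 with hairpins #1, #2 and #3. That of NR1D2 to ARNTL was 2.97 ± 0.15 in Control, 2.39 ± 1.02 in sh_PIP4K2B and 1.99 ± 0.09 in Soft, and that of PER2 to ARNTL was -0.27 ± 0.07, -1.23 ± 0.74 and -0.89 ± 0.26. In every library of sh_PIP4K2B and Soft PER2 was lower relative to ARNTL than in any Control library. PER1, PER3 and NR1D1 kept log2 ratios to ARNTL in Soft of 0.46, 1.11 and 1.56, close to 0.66, 0.97 and 1.62 in Control. With hairpins #1, #2 and #3 the log2 ratio of PER3 to ARNTL was 0.59, -0.60 and 0.44, below the lowest Control value of 0.78. That of PER1 was 0.70, -0.74 and 0.86 and that of NR1D1 1.41, 0.56 and 2.39, on both sides of Control. These ratios are descriptions without a test, and those of NR1D1 hold an estimated part of the reads divided with THRA.

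**Figure D4:**
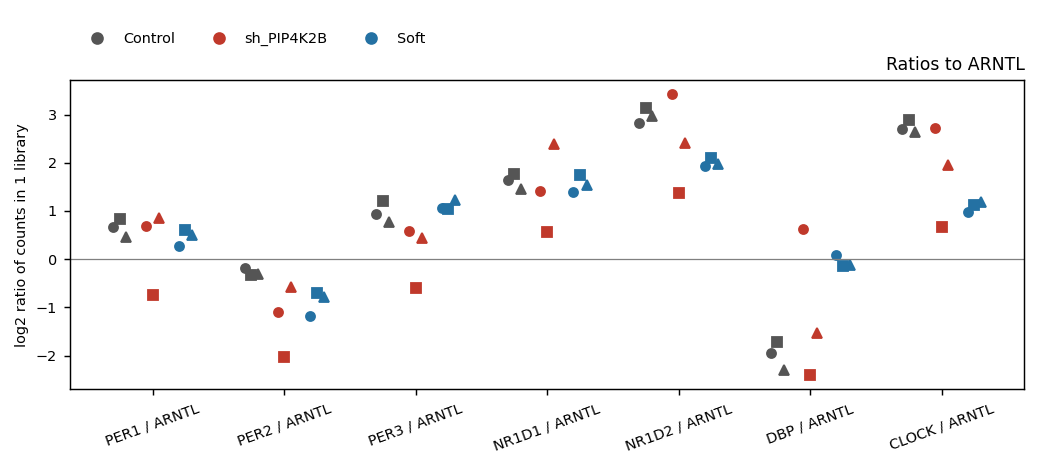
Log2 ratio of the count of each gene to that of ARNTL in the same library, with Control in grey, sh_PIP4K2B in red and Soft in blue (circle, square and triangle are replicates or hairpins 1, 2 and 3). Soft and Control are apart for CLOCK (means 1.09 and 2.75), DBP, NR1D2 and PER2 and overlap for PER1, PER3 and NR1D1.

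Across the 9 libraries PER1 and NR1D1 had the most similar log2 CPM of any 2 clock genes (Pearson r = 0.95), followed by CRY2 and ARNTL (0.91), PER2 and NR1D1 (0.84), CLOCK and NR1D2 (0.81) and PER1 and PER2 (0.80). The lowest r was that of CRY2 and CLOCK at -0.57. ARNTL and CLOCK had an r of -0.30. The values of NR1D1 hold an estimated part of the reads divided with THRA. These values describe 9 libraries that share 3 conditions, so they hold the differences between conditions, and hairpin #3 was the highest library for PER1, PER2, CRY1 and NR1D1. Outside the clock lists the 3 genes most like ARNTL were RBM22 (r = 0.99), ABCA1 (0.98), the cholesterol exporter, and TOX (0.98). ABCA1 had a mean of 24.5 CPM in Control, 65.8 CPM in Soft and 38.3, 89.3 and 86.7 CPM with hairpins #1, #2 and #3. Those most like NR1D1 were KDR (0.99), a receptor of VEGF, TMEM55A (0.98) and PPP4R1L (0.98), and for hairpins #1, #2 and #3 KDR was at 2.53, 1.78 and 10.2 CPM and at a mean of 1.45 CPM in Control. Those most like PER2 were PPP3CA (0.95), the catalytic subunit of calcineurin, the pseudogene PKD1P6 (0.95), whose reads are uncertain among the copies of PKD1, and UBTD2 (0.94).

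Other genes of the clock were taken in 4 lists with 40 genes, of which 36 were tested. The lists were chosen with earlier results of these data known. In sh_PIP4K2B 6 of 36 rose and 1 fell, and in Soft 5 rose and 4 fell (edgeR, adjusted p below 0.01). That is 19.4% and 25% of the tested genes, beside 5.54% and 30.6% of all genes. Their median log2 fold change was 0.35 in sh_PIP4K2B and 0.19 in Soft. In Soft against sh_PIP4K2B 4 were higher and 9 lower (36.1%, beside 30.0%). The calls in sh_PIP4K2B were sensitive to the Control libraries, since 0 of the 7 passed without Control replicate 1 or 2, and FBXW7 alone without replicate 3. In the fit of only these 2 conditions 0 of the 7 passed, where PIP4K2B itself did not pass either.

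Among the loop genes that are kin of the 10 or regulate them, 11 were listed and 9 tested. BHLHE41 (DEC2), a repressor at E-boxes, rose in both conditions, from 28.8, 31.8 and 32.1 CPM in Control to 52.3, 66.8 and 51.0 CPM with hairpins #1, #2 and #3 (log2 fold change 0.88, edgeR adjusted p = 0.0024) and to 86.0, 79.9 and 84.9 CPM in Soft (1.44, edgeR adjusted p = 4.0e-05). TEF, a PAR bZIP factor like DBP, was at 14.5, 12.5 and 15.0 CPM in Control and rose to 43.0, 37.0 and 41.3 CPM in Soft (1.53, edgeR adjusted p = 4.2e-04). With hairpins #1, #2 and #3 it was at 29.9, 16.7 and 18.1 CPM, highest with hairpin #1 as DBP was (0.62, edgeR adjusted p = 0.070). ARNTL2, the paralogue of ARNTL, fell in Soft from 85.7, 96.7 and 92.6 to 36.1, 35.0 and 34.9 CPM (-1.38, edgeR adjusted p = 5.6e-04), opposite to ARNTL. TIMELESS, which acts at the replication fork, fell in sh_PIP4K2B (-0.60, edgeR adjusted p = 0.0030). NFIL3, a repressor at D-boxes, had a log2 fold change of 1.66 in sh_PIP4K2B (edgeR adjusted p = 0.018), and RORA, an activator of ARNTL, one of 1.45 (edgeR adjusted p = 0.019) at levels of at most 1.83 CPM. BHLHE40 was at 0.56 there (edgeR adjusted p = 0.015), and none of these 3 passed 0.01. RORB and HLF were under the filter, with at most 2 counts of RORB and 22 of HLF in a library.

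Of 13 genes for kinases, ubiquitin ligases and other modifiers of clock proteins, 12 were tested. FBXW7, a ubiquitin ligase subunit, rose in sh_PIP4K2B from 12.7, 13.4 and 14.6 to 28.7, 24.1 and 27.0 CPM (log2 fold change 0.97, edgeR adjusted p = 0.0012), and was at 10.2, 9.81 and 9.97 CPM in Soft. BTRC, another ligase subunit, fell in Soft (-0.41, edgeR adjusted p = 0.0066), a call lost whichever of the 6 libraries was left out. In sh_PIP4K2B BTRC was at -0.42 and did not pass (edgeR adjusted p = 0.018). All 6 output genes were tested. KLF9, a transcription factor that glucocorticoids induce, rose in both, from 24.1, 24.1 and 23.1 CPM to 33.9, 57.2 and 60.5 CPM with hairpins #1, #2 and #3 (1.09, edgeR adjusted p = 0.0066) and to 89.7, 92.4 and 82.9 CPM in Soft (1.89, edgeR adjusted p = 9.0e-05). WEE1, a kinase that holds the cell cycle before mitosis, rose in sh_PIP4K2B (0.70, edgeR adjusted p = 0.0024), and NAMPT, an enzyme of NAD synthesis, rose in Soft (1.14, edgeR adjusted p = 0.0029). NOCT fell by 1.68 on the log2 scale in Soft (edgeR adjusted p = 0.0061). The calls of NAMPT and NOCT were lost without Control replicate 1, 2 or 3 and without Soft replicate 1 or 3, that of NOCT also without Soft replicate 2, and that of KLF9 in sh_PIP4K2B without hairpin #2.

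The fourth list held genes on the path by which signals set the clock, 10 listed and 9 tested, with ZBTB16 at 0 counts in every library. NR3C1, the glucocorticoid receptor, rose in sh_PIP4K2B from 62.4, 62.8 and 63.9 to 113, 92.0 and 142 CPM (log2 fold change 0.87, edgeR adjusted p = 0.0049). SIK1, a kinase that limits CREB coactivators, rose in sh_PIP4K2B from 80.6, 73.2 and 78.6 CPM to 370, 262 and 138 CPM, all hairpin libraries being above Control (1.73, edgeR adjusted p = 0.0048). The glucocorticoid target TSC22D3 rose in Soft (1.40, edgeR adjusted p = 8.4e-04), while SGK1, another such target, fell there (-1.10, edgeR adjusted p = 0.0016). FKBP5 was lower in sh_PIP4K2B and did not pass (-0.49, edgeR adjusted p = 0.012). FOS, an immediate early gene, was at 1.44, 1.58 and 1.18 CPM in Control, 10.1, 1.73 and 14.2 CPM with hairpins #1, #2 and #3, and 6.70, 7.81 and 6.88 CPM in Soft, and did not pass (edgeR adjusted p = 0.018 and 0.0108).

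**Figure D5:**
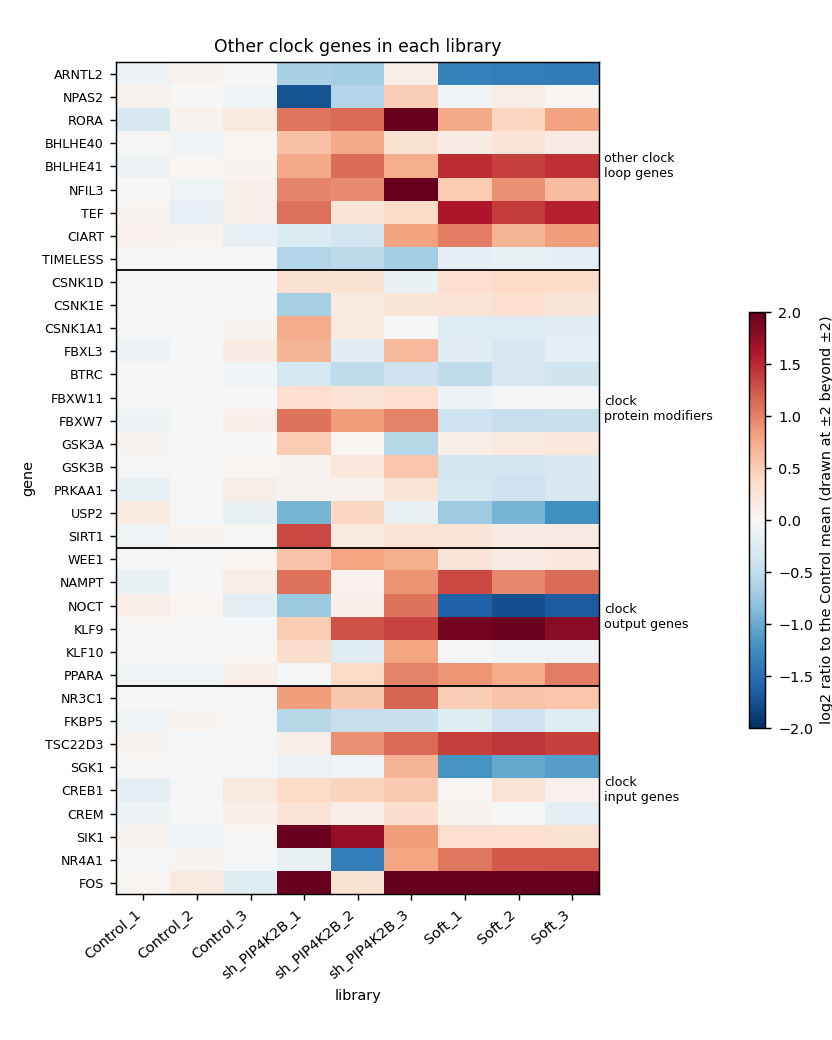
Log2 ratio of each of the 36 tested genes of the 4 other clock lists to its Control mean, by library (columns) and gene (rows), with red above and blue below Control and values beyond 2 drawn at 2. Within the Soft columns the libraries are alike, as for KLF9 and BHLHE41 above and ARNTL2 and NOCT below Control, whereas hairpin columns differ, as for SIK1 at 370, 262 and 138 CPM.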

How the data were processed

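mRNA libraries of hTERT_RPE1 cells (3 Control, 3 sh_PIP4K2B and 3 Soft) were made by the authors with a stranded kit, and groups follow the labels. Reads were mapped with STAR to GRCh38, and the deposited values are estimated counts for each gene, unscaled and with 1 column per library. Salmon is also named in the submitters' processing notes, with no role, and the annotation and the use of strand in counting are not given in the sources used here. Of the values 12.3% were not whole, and all were rounded.

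The main test was the quasi-likelihood test of edgeR 4.0.16 (R 4.3.3) after filterByExpr and TMM scaling, with all 9 libraries in the same model. p-values were adjusted by Benjamini-Hochberg over 13784 genes, and 0.01 was the threshold. The SE was taken from the F statistic. CPM were scaled with TMM factors. Counting error limits low values, a count of 3 being the floor. DESeq2 1.42.0, other scalings and filters, a fit of 2 conditions, a replicate block, each library left out and a threshold of 0.05 were alternatives. On simulated data with 200 genes changed 2-fold among 13784, edgeR recovered 176 with 7 false calls in sh_PIP4K2B and 170 with 3 in Soft. The simulated spread was that of the Control and Soft libraries only. It lacked the wider spread of the hairpin libraries, so these numbers do not give the recovery in the fit of the 9 real libraries. Replicates within Control and Soft differed beyond sampling noise (chi-square per degree of freedom 3.18 to 5.90), so none was counted as a repeat.

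The members and gene lists were chosen with earlier results of these data known. Named genes are the 10 members, genes of the other clock lists past 0.01 against Control or without counts, THRA, PIP4K2B, and the 3 genes nearest to ARNTL, PER2 and NR1D1 by Pearson r of log2 CPM. For these correlations and those between clock genes a small constant was added to each CPM. The median SD and the correlations between libraries used a prior count of 1. CLOCK to ARNTL, NFIL3, RORA, BHLHE40, FKBP5, FOS, SPHK2 and TMEM165 were added after their values were seen. Of the lists of other clock genes 2 genes are not reported here and were left out of the counts. Positions are from GENCODE, in which ARNTL is named BMAL1, and promoters from RefSeq, both on GRCh38.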

Additional observations from a re-analysis of the deposited data

How the results depend on the processing

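The number of clock genes past the threshold (1 in sh_PIP4K2B, 3 in Soft and 0 between Soft and sh_PIP4K2B) was kept with size factors of DESeq2 in edgeR, by library size only and with at least 10 counts in every library. Over all genes these settings called 4.84% to 6.51%, 28.7% to 31.1% and 27.3% to 31.1%. The number of clock genes was 2, 3 and 2 with DESeq2, beside 13.6%, 34.5% and 34.5% of all genes. At a threshold of 0.05 it was 2, 4 and 3, beside 17.2%, 47.1% and 46.2%. In fits of the 2 conditions compared it was 0, 8 and 0, beside 0.0375%, 70.7% and 16.1%. In Soft against sh_PIP4K2B it was 1 with upper quartile scaling (PER3, beside 30.0% of all genes). It was also 1 there with no filter on low counts (CLOCK, beside 20.6%). Leaving out 1 library gave 0 to 5 in sh_PIP4K2B, 0 to 2 in Soft and 0 to 2 in Soft against sh_PIP4K2B. In the last the share of all genes called ran from 16.8% to 38.4%. The calls over all genes fell likewise, in sh_PIP4K2B from 763 to 122, 66 and 161 without Control replicate 1, 2 or 3, and rose to 1660, 2013 and 1770 without hairpin #1, #2 or #3. In Soft they fell from 4217 to between 2506 and 2721. With DESeq2 1997 genes passed in sh_PIP4K2B, and with the replicate block 295.

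With the replicate number as a block the counts were 0, 2 and 0, beside 2.14%, 25.7% and 24.4% of all genes. The same numbers did not pair the libraries: the correlations of their deviations from the group means were between -0.12 and 0.038 over 9 pairs. ARNTL lost its calls under the block (adjusted p = 0.019 in sh_PIP4K2B and 0.011 in Soft, edgeR), and CRY1 in sh_PIP4K2B turned to -0.0076. Of the 7 other clock genes called in sh_PIP4K2B 5 lost the call (KLF9, NR3C1, SIK1, TIMELESS and WEE1), and in Soft BTRC did.

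Directions turned for some log2 fold changes. In the main fit these ran from -0.31 for NR1D1 in Soft against sh_PIP4K2B to 0.28 for PER2 in sh_PIP4K2B. With library size only, which moved the median of all genes to 0.14 in sh_PIP4K2B and 0.12 in Soft, NR1D2 in Soft was 0.047, and with upper quartile scaling CRY2 in Soft against sh_PIP4K2B was 0.030. The sum of NR1D1 and THRA in Soft against sh_PIP4K2B was 0.65, all reads of THRA included. With 1 library left out, CRY1 ran from -0.38 to 0.30 and PER2 from -0.25 to 0.49 in sh_PIP4K2B, NR1D2 from -0.13 to 0.0014 in Soft, and in Soft against sh_PIP4K2B PER1 ran from -0.41 to 0.31, PER2 from -0.19 to 0.54, CRY2 from -0.28 to 0.22 and NR1D1 from -0.59 to 0.44. The cause was not tested. Over the 10 genes and all alternatives, 133, 131 and 131 values in the 3 comparisons kept direction and side of the threshold, while 4, 2 and 9 turned. A further 9, 6 and 11 kept direction and gained a call, those at a threshold of 0.05 included. In sh_PIP4K2B 5 and in Soft 12 kept direction and lost a call. With 35 to 43 counts of DBP in a Control library, its fold changes have the least depth behind them.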
